A study of Mus musculus with 9 samples.

Results

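Removal of both Esrp2 alleles from mouse epidermis that already lacked Esrp1 was examined by RNA sequencing. Esrp1−/−, Esrp2−/− embryos (DKO, n = 2 libraries) were compared with Esrp1−/−, Esrp2+/+ embryos (KO, n = 3 libraries), so that all 5 embryos shared the loss of Esrp1 and the number of Esrp2 alleles went from 2 to 0. These were 5 of the 9 libraries of the study. The other 4 were 2 Esrp1−/−, Esrp2+/− libraries (KH) and 2 libraries labelled wild type for both genes (WT), which shared the estimate of the spread and are given as reference levels. Each library came from the trunk epidermis of a single embryo at E18.5, from the basal to the cornified layer, on a mixed C57BL6/129Sv background. The Esrp1 allele was a germline deletion of an internal block of exons, and in the Esrp2 allele the locus was replaced by a LacZ and neomycin cassette, each line being derived from a single ES cell clone. Of the 38203 genes in the table, 12052 averaged at least 1 FPKM (fragments per kilobase of transcript, scaled to the mapped fragments of the library) in DKO or KO and lay outside chromosomes X and Y, and these genes were tested. Values per library are given below in the order of replicates 1 and 2 for DKO and 1, 2 and 3 for KO.

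The Esrps are RNA-binding proteins of epithelial cells that set the splicing of many transcripts, and Esrp1 and Esrp2 share most of their known targets. Epidermis is renewed by basal keratinocytes that move outward, exchange one set of keratins for another and finally seal their contents into the cornified envelope. Many proteins of that envelope (loricrin, the small proline-rich Sprr proteins, the late cornified envelope Lce proteins and the fused S100 proteins such as filaggrin and repetin) are encoded side by side in the epidermal differentiation complex on mouse chromosome 3. Injured or inflamed skin is known to express another set of keratins, Krt6 and Krt16 among them, together with antimicrobial proteins and cytokines.

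KO and DKO embryos came from separate matings, and in these libraries they also differed in sex. Xist, which is transcribed from the inactive X chromosome, was listed at 180.4, 166 and 76.2 FPKM in the KO libraries and at 0.178 and 0.0487 FPKM in the DKO libraries. The Y-linked Ddx3y was listed at 11.8 and 8.14 FPKM in DKO and at no more than 0.0110 FPKM in any KO library. Sex and Esrp2 genotype therefore cannot be told apart between DKO and KO from these 5 libraries, and X and Y genes were left out. Both KH libraries carried Y transcripts as DKO did (Ddx3y 11.8 and 11.5 FPKM), and their levels are given beside the main results. The extraction text of the study gives the WT genotype as lacking Esrp2, but the WT libraries contained 118 and 136 FPKM of Esrp2.

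Summed FPKM values lay between 713318 and 1130713 per library and were 1112137 and 771857 in DKO, and the number of reads behind them cannot be read from FPKM. Keratinocyte markers summed to 51790 and 36620 FPKM in DKO and to 33230 to 77680 FPKM in KO. Markers of adipocytes, endothelium and skeletal muscle were near 0, with no gene reaching the filter. Dermal fibroblast markers summed to 49.6 and 77.9 FPKM in DKO and to 94.9 to 159.9 FPKM in KO, and melanocyte markers to 97.2 and 212.6 FPKM in DKO and to 69.9 to 86.7 FPKM in KO. Red blood cell markers summed to 431.5 and 1520 FPKM in DKO and to 106.2 to 587.3 FPKM in KO. No gene of the 9 marker lists passed the test, and the part of these cell types in the results was not tested. In tissue RNA, fewer cells of a type and less RNA per cell cannot be told apart.

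The targeted gene was examined first. Esrp2 was listed at 0.0843 and 0.0463 FPKM in the DKO libraries and at 88.1, 88.4 and 131 FPKM in the KO libraries (log2 difference −6.58, SE 0.34, adjusted p = 2.63e-05, limma with Benjamini-Hochberg adjustment over the 12052 genes). The KH libraries lay at 38.6 and 89.5 FPKM. All 3 KO libraries and both KH libraries stood far above DKO, in the order that the labels give, although KH replicate 2 was at the level of the lower KO libraries. Esrp1 transcripts that remain after the exon deletion were listed at 42.2 and 38.6 FPKM in DKO and at 29.8, 28.6 and 27.1 FPKM in KO, against 119 and 142 FPKM in WT. Both DKO libraries were above all 3 KO libraries, but the difference did not pass the test (log2 difference 0.49, SE 0.38, adjusted p = 1.00).

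Esrp2 lies on the minus strand of chromosome 8 (GENCODE M21, mm10, chr8:106130319-106136974) and shares its ends with other genes. 1810019D21Rik, a non-coding transcript of the opposite strand, overlaps it by 1575 bases, and the end of Nfatc3, which encodes a calcium-regulated transcription factor, overlaps it by 219 bases. 1810019D21Rik was listed at 0.384 and 0.743 FPKM in DKO and at 10.8, 12.4 and 12.7 FPKM in KO, with no overlap (log2 difference −3.06, SE 0.42, adjusted p = 0.00999). This call was lost without DKO replicate 1 (0.138), DKO replicate 2 (0.0816), KO replicate 2 (0.0578) and KO replicate 3 (0.0624), the adjusted p of each being in parentheses. Nfatc3 was listed at 4.86 and 5.49 FPKM in DKO and at 12, 8.65 and 12.5 FPKM in KO and did not pass the test (−0.95, adjusted p = 0.124). The other 10 tested neighbours, from Psmb10 to Smpd3, differed by −0.21 to 0.36 on the log2 scale and none passed. The exact limits of the replaced segment were not used here, so a loss of template and a change in transcription cannot be told apart for these genes.

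Across the tested genes, 93 passed the test (adjusted p below 0.05 and more than 2-fold in average FPKM), which was 0.772% of them. There were 73 genes higher in DKO (0.606%) and 20 lower (0.166%), while the median log2 difference of all tested genes was −0.006, with 5907 genes above 0 (49.0%) and 6145 below (51.0%). Without the test, 333 genes were more than 2-fold higher in average FPKM (2.76%) and 344 more than 2-fold lower (2.85%). On a TPM scale 139 genes passed, 64.0% of them higher, against 78.5% with FPKM. Over all tested genes, 762 had an unadjusted p below 0.05 (6.32%). In the called genes the 2 DKO libraries lay beyond all 3 KO libraries without exception, an arrangement that 10.5% of all tested genes showed upward and 9.23% downward. Of the 73 higher genes, 34 averaged below 1 FPKM in KO and so entered the test only through DKO. Of the 20 lower genes, 11 averaged below 1 FPKM in DKO. Differences are on the log2(FPKM + 1) scale, which understates changes of weakly expressed genes. When each of the 9 libraries was left out in turn, 34 of the 73 higher and 4 of the 20 lower genes kept their call every time. The losses given beside single genes are mostly those without a library, and 5 of these 38 genes (Spink7, Il1b, Sema3g, Lce3a and Irak3) lost their call under another setting. The libraries that decided most calls were the DKO replicates, with 43 of the 93 genes called without replicate 1 and 48 without replicate 2.

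**Figure D1:**
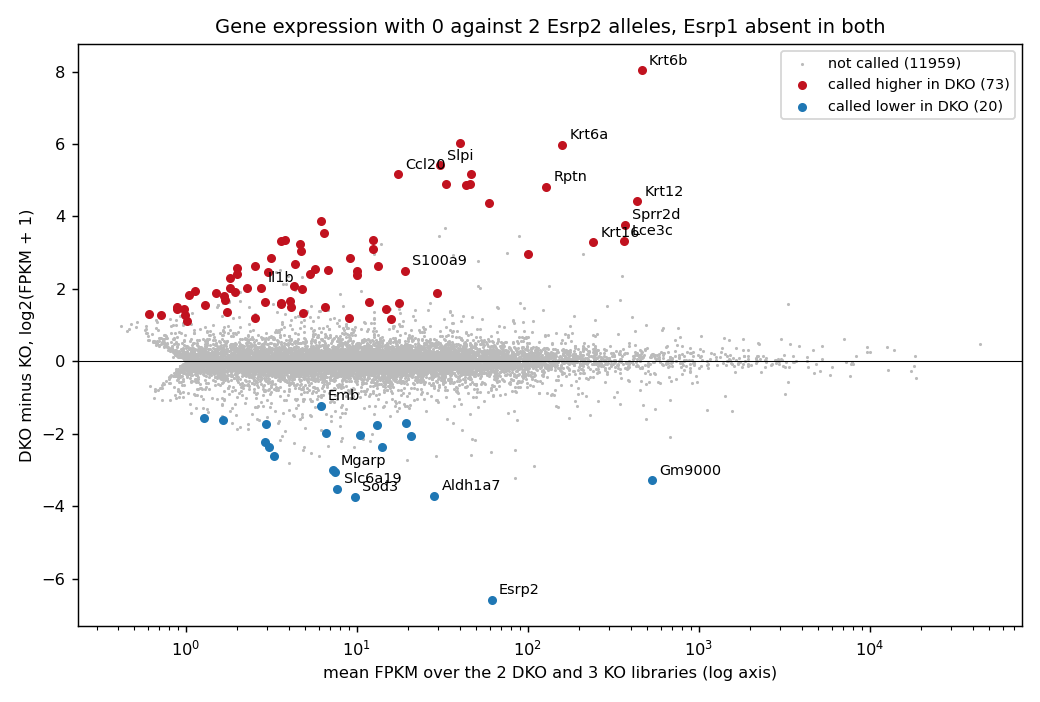
Log2 difference in FPKM + 1 between DKO and KO (vertical axis) against the mean FPKM over the 5 libraries (horizontal log axis) for the 12052 tested genes, with called genes in colour. The 73 called higher genes reach a log2 difference of 8.03 (Krt6b), and the 20 called lower genes reach −6.58 (Esrp2).

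The KH libraries, with 1 Esrp2 allele and with Y transcripts like those of DKO, lay between the other groups in the number of alleles. For 92 of the 93 called genes the KH mean was nearer to KO than to DKO. For 92 both KH libraries fell short of both DKO libraries, as in 26.2% of all tested genes. The called genes were selected for a large step between KO and DKO in these same libraries. The positions of KH and WT relative to that step are therefore given as a description. The median position of KH along the step from KO to DKO was 1.63% for the higher genes and 11.9% for the lower genes on the log2 scale. Both KH libraries lay beyond all KO libraries on the side of DKO for 12 of the 93 genes, among them Krt6b (4.83 and 6.39 FPKM in KH), Sprr2b, Ak4 and Gm9000, and for 3.84% of all tested genes. The same KO libraries set both sides of this count, and it is given as a description. The exception in position was Wdfy1, which encodes an endosomal adaptor protein, with 5.11 and 3.67 FPKM in DKO, 3.39 and 4.14 FPKM in KH and 1.6, 1.09 and 1.27 FPKM in KO. Wdfy1 lost its call without DKO replicate 1 (0.31), DKO replicate 2 (0.0801), KO replicate 1 (0.0536), KO replicate 2 (0.139), KO replicate 3 (0.132), WT replicate 1 (0.0824) and WT replicate 2 (0.0805). Compared with the WT libraries, DKO was outside the WT values, in the direction of its difference from KO, for 91 of the 93 genes (48.4% of all tested genes). The other 2 were Thbd, the thrombin-binding receptor thrombomodulin, and the non-coding Gm14010. Thbd was listed at 7.39 and 6.02 FPKM in DKO, 1.2, 1.37 and 2.09 FPKM in KO and 5.88 and 7.71 FPKM in WT, so that DKO was back at the WT level. Its call was lost without DKO replicate 1 (0.134), DKO replicate 2 (0.0613) and KO replicate 2 (0.0555).

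The single highest increase was that of a keratin, Krt6b. Of 106 genes listed as keratins or keratin-associated by name, 29 were tested, with a median log2 difference of 0.20. Of the 29, 6 were higher in DKO (against 0.606% of all tested genes) and none was lower (against 0.166%). Among the 6, Krt84 averaged below 1 FPKM in KO and entered the test only through DKO. Krt6b (mm10 chr15:101676034-101680289), a keratin of the hair follicle and of wounded epidermis, was listed at 710.2 and 1593 FPKM in DKO and at 3.24, 3.11 and 2.87 FPKM in KO. Its DKO average was 375 times its KO average (log2 difference 8.03, SE 0.34, adjusted p = 6.75e-06), and KH and WT stayed at or below 12.2 FPKM. Krt6a, its close relative in the same cluster on chromosome 15, was listed at 156 and 629 FPKM in DKO and at 4.21, 3.44 and 4.37 FPKM in KO (log2 difference 5.97, SE 0.50, adjusted p = 0.000514). DKO replicate 2 was the higher of the pair for both genes. The 2 sequences are nearly alike, so the division of reads between them is uncertain.

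Krt16, the usual type I partner of Krt6, was listed at 354 and 697 FPKM in DKO and at 40.6, 53.3 and 57.3 FPKM in KO (log2 difference 3.29, SE 0.31, adjusted p = 0.00113). Krt12, a keratin known from the corneal epithelium, was at 994 and 1040.0 FPKM in DKO and at 28.8, 70.6 and 49 FPKM in KO (log2 difference 4.42, SE 0.45, adjusted p = 0.00179), with KH at 44.7 and 113 FPKM and WT at 24.5 and 15.8 FPKM. The DKO pair differed little, and KH replicate 2 lay above the KO libraries but far below DKO. Krt84, a hair and nail keratin, rose from 0.0823, 0.401 and 0.316 FPKM in KO to 4.63 and 3.61 FPKM in DKO (log2 difference 2.02, SE 0.21, adjusted p = 0.0022). Krt7, a keratin of simple epithelia, rose from 3.21, 3.6 and 3.05 FPKM to 13 and 9.53 FPKM (log2 difference 1.5, SE 0.20, adjusted p = 0.00855), and lost its call without DKO replicate 1 (0.118).

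The keratins that make up most of the epidermal filament network did not pass. The basal Krt5 and Krt14 differed by 0.01 and 0.17 on the log2 scale and the suprabasal Krt1 and Krt10 by −0.14 and −0.47, all with an adjusted p of 1.00. Krt77, a suprabasal keratin, had the lowest value of the list, with 22.6 and 5.36 FPKM in DKO and 48.9, 151 and 192 FPKM in KO, and did not pass (−3.21, adjusted p = 0.0871). Krt2, a keratin of the upper layers, also did not pass, with 13.9 and 3.76 FPKM in DKO and 1.54, 2.93 and 2.88 FPKM in KO (1.32, adjusted p = 0.426). Krt13 and Krt34 were named after their values were seen: in both, DKO lay above KO, but the DKO replicates were several-fold apart (Krt13 47.1 and 9.46 FPKM, Krt34 14.2 and 3.65 FPKM) and neither passed (adjusted p = 0.0871 and 0.0582).

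**Figure D2:**
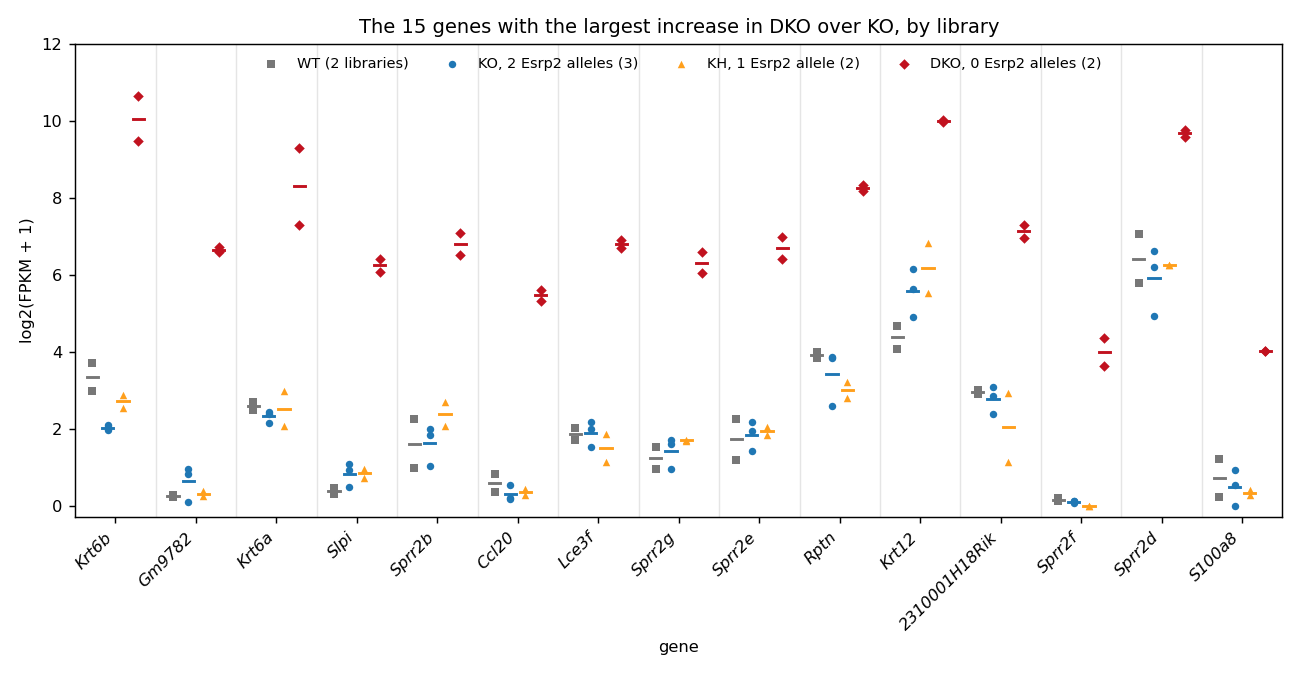
Level as log2(FPKM + 1) (vertical axis) of the 15 called genes with the largest increase (horizontal axis), with 1 point per library, a bar for each group mean and colours for WT, KO, KH and DKO. The DKO points lie above those of the other groups for every gene.

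All 18 higher genes of chromosome 3 lay in the epidermal differentiation complex. Between S100a1 and S100a10 on chromosome 3 (mm10 chr3:90511034-93564643), 92 genes were in the table, 70 were tested and 18 were higher in DKO (25.7%), with none lower. Outside the complex, 55 of 11982 tested genes were higher (0.459%), and in the rest of chromosome 3, none of 572 was. The median log2 difference over the 70 genes was 0.52 and 54 of them were above 0 (against 49.0% of all tested genes). The 18 genes were 6 of the Sprr2 family, 6 of the Lce3 family, the fused S100 genes Rptn, Crnn and Tchhl1, the calprotectin genes S100a8 and S100a9, and Prr9. Several of these genes entered the test only through their DKO values, so the share depends on this filter. The rise in this complex in the double knockout was already known when the region was chosen.

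**Figure D3:**
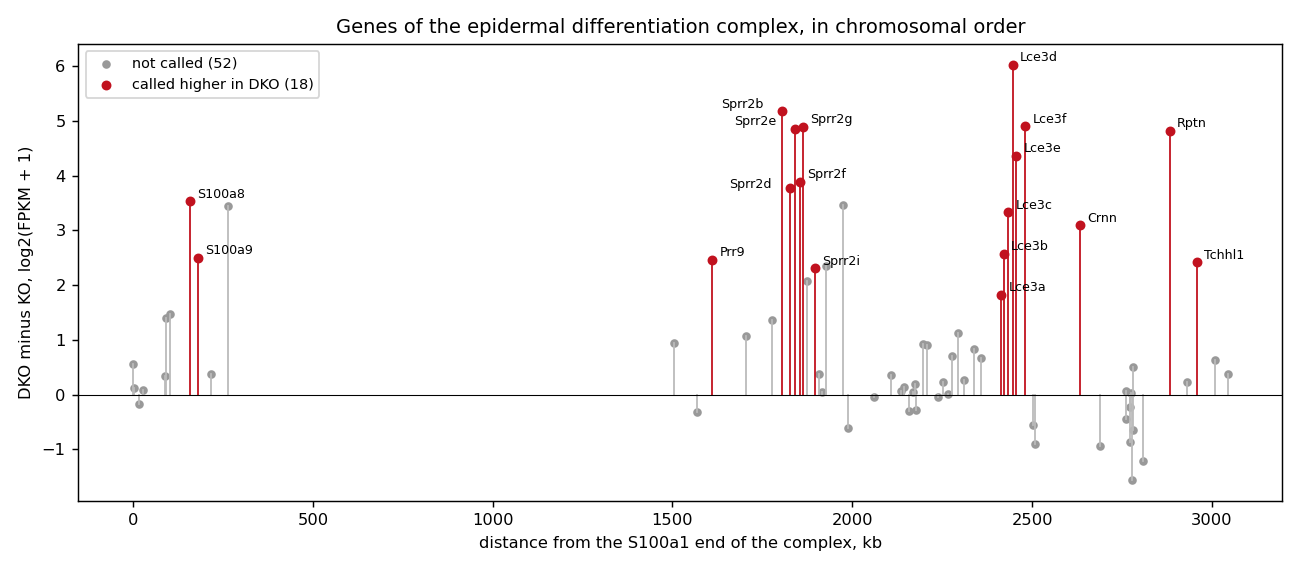
Log2 difference between DKO and KO (vertical axis) of the tested genes of the epidermal differentiation complex by distance in kb from its S100a1 end (horizontal axis). Called genes are coloured: the Lce3 and Sprr2 genes form high groups, while the Lce1 genes lie between −0.90 and 1.13 and none is called.

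Sprr2 genes encode small proline-rich proteins that are cross-linked into the cornified envelope, and they are known to be induced by stress. Of the 10 tested members, 6 were higher in DKO (against 0.606% of all tested genes), and in 9 both DKO libraries lay above all 3 KO libraries (against 10.5%). Sprr2f and Sprr2i averaged below 1 FPKM in KO and entered the test only through DKO. Sprr2d was the most abundant, at 770.5 and 875 FPKM in DKO and 29.4, 97 and 72.9 FPKM in KO (log2 difference 3.77, SE 0.50, adjusted p = 0.00881), and it lost its call without DKO replicate 1 (0.0946) and DKO replicate 2 (0.0986). Sprr2b was listed at 90.4 and 134 FPKM in DKO and 1.03, 2.98 and 2.57 FPKM in KO (log2 difference 5.18, SE 0.42, adjusted p = 0.000432), with KH at 5.47 and 3.18 FPKM. Sprr2e was at 84.1 and 126 FPKM in DKO and 1.67, 2.87 and 3.48 FPKM in KO (log2 difference 4.86, SE 0.35, adjusted p = 0.00019). In each of these genes the lower DKO library lay well above the highest KO library, and DKO replicate 2 was the higher one.

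Sprr2g rose from 0.93, 2.27 and 2.04 FPKM in KO to 64.6 and 96.1 FPKM in DKO (log2 difference 4.90, SE 0.29, adjusted p = 5.98e-05), and is annotated in GENCODE M21 as a polymorphic pseudogene. Sprr2f was at 0.0567, 0.0779 and 0.0906 FPKM in KO, listed at 0 in both KH libraries, and at 11.3 and 19.6 FPKM in DKO (log2 difference 3.88, SE 0.24, adjusted p = 6.91e-05). Sprr2i was at 0.0556, 0.153 and 0.0222 FPKM in KO and 3.48 and 5.34 FPKM in DKO (log2 difference 2.31, SE 0.22, adjusted p = 0.00109). Sprr2h, Sprr2a3 and Sprr2a1 were also above all KO libraries in both DKO libraries without passing (log2 differences 2.08, 1.36 and 1.07). For Sprr2a1, DKO (24.3 and 12.3 FPKM) overlapped WT (23.4 and 22.3 FPKM), and KO lay below both. For Sprr2a3, WT was at 11.5 and 12.3 FPKM against 29.2 and 12.7 FPKM in DKO. Only Sprr2j-ps, named as a pseudogene, overlapped between DKO and KO. It was at 1.7 and 2.42 FPKM in DKO and 0.988, 1.9 and 1.22 FPKM in KO (log2 difference 0.38). Sprr2 genes are close copies of each other, so reads may have been divided among them with error.

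Sprr1a and Sprr1b, envelope precursors beside the Sprr2 genes, were named after their values were seen. Sprr1a was listed at 178 and 209 FPKM in DKO and 8.38, 32.3 and 16.5 FPKM in KO (3.46, adjusted p = 0.0582). Sprr1b was listed at 444 and 912 FPKM in DKO and 71.7, 218 and 122 FPKM in KO (2.35, adjusted p = 0.0767). The groups did not overlap for either gene and neither passed. Sprr4 was the only tested Sprr gene with a negative difference (−0.60, adjusted p = 1.00), and the median of the 13 tested Sprr genes was 2.35 (2.90 over the 12 in the gene list, which leaves out Sprr2j-ps).

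Promoter sequence is shown for the Sprr2, Rptn and Crnn genes because these members of the complex rose together and carried the same pair of short motifs before the start site. Each run is the 220 bases that precede the RefSeq start, on the coding strand (GRCm38.p6), with TGANTCA (the AP-1 letters, searched on both strands) and TATAAA (searched on the coding strand) in capitals.
Sprr2b (chr3:92316485-92316704, plus strand): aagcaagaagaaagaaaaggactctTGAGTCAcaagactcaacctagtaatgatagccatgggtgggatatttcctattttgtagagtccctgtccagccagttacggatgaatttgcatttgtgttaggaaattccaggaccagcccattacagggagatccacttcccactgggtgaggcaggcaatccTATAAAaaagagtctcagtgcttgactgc
Sprr2d (chr3:92338920-92339139, plus strand): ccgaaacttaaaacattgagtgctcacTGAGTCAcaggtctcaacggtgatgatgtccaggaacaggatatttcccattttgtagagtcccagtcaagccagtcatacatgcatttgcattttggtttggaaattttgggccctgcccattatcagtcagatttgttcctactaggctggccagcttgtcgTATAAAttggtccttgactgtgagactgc
Sprr2e (chr3:92351923-92352142, plus strand): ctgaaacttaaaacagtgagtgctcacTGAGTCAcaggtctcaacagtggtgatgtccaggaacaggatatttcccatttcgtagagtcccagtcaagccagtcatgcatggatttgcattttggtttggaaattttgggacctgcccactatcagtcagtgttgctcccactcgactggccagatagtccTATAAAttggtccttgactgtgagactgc
Sprr2f (chr3:92364967-92365186, plus strand): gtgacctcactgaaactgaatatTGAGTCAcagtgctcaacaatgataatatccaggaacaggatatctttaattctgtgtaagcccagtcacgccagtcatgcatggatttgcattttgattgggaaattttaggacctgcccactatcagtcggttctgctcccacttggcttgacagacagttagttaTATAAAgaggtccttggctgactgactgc
Sprr2i (chr3:92407771-92407990, plus strand): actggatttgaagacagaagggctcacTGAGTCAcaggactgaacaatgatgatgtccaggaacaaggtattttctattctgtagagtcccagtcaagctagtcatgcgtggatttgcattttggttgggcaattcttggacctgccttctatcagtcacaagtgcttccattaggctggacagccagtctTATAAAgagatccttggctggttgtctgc
Rptn (chr3:93393479-93393698, plus strand): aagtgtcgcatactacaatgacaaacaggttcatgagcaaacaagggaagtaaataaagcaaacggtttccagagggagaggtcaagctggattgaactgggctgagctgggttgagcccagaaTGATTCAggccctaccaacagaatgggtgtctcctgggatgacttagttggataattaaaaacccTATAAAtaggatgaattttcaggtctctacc
Crnn (chr3:93144569-93144788, plus strand): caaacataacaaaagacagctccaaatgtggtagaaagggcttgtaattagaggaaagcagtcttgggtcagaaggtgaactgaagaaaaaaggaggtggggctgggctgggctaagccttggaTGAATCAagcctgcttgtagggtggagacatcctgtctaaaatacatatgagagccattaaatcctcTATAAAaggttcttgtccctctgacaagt

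In all 5 Sprr2 promoters shown the AP-1 letters began 193 to 197 bases before the start and TATAAA began 29 bases before it. The called Sprr2g had no promoter sequence available, and Sprr2 genes that were not called are not included. In Rptn and Crnn the AP-1 letters began 96 bases before the start. Over the 300-base window from 250 bases before to 50 after the start, TGANTCA was found in 12 of the 54 called higher genes with a promoter in the table (22.2%), in 6.31% of 8905 tested genes and in 7.81% of all 32851 promoters. TATAAA was found in 21 of the 54 (38.9%), in 8.85% of tested genes and in 13.6% of all promoters. Neither motif was found in any of the 6 Lce3 promoters. Grainyhead-like letters (AACCNGTT, both strands) were found in 3 of the 54 (5.56%) against 2.31% of tested genes, and Ets letters (AGGAAGT, both strands) in 4 (7.41%) against 9.98%. Among the called lower genes, 1 of 15 held TGANTCA (6.67%). A match is only a string of letters and does not show that a factor binds, and genes of a family share sequence by descent.

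Lce3 genes encode late envelope proteins that are known from repair and from psoriatic skin, whereas the Lce1 genes beside them are expressed in normal late differentiation. The 6 Lce3 genes of the table were tested and higher in DKO (against 0.606% of all tested genes), of which Lce3a, Lce3b and Lce3d entered the test only through DKO, and none of 14 tested Lce1 genes was called in either direction (median log2 difference 0.17). Gm9782, named Lce3d in GENCODE M21, was listed at 95.8 and 104 FPKM in DKO and 0.0689, 0.943 and 0.771 FPKM in KO (log2 difference 6.03, SE 0.26, adjusted p = 6.75e-06). Lce3f rose from 1.87, 2.95 and 3.52 FPKM to 118 and 103 FPKM (log2 difference 4.91, SE 0.28, adjusted p = 4.73e-05), and 2310001H18Rik, named Lce3e in GENCODE M21, rose from 4.21, 6.18 and 7.42 FPKM to 157 and 124 FPKM (log2 difference 4.37, SE 0.45, adjusted p = 0.00185). The DKO pair agreed closely in these 3 genes.

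Lce3c was the most abundant Lce3 gene, at 1085 and 526 FPKM in DKO and 54.7, 93.8 and 78.8 FPKM in KO (log2 difference 3.33, SE 0.50, adjusted p = 0.0159), and it lost its call without DKO replicate 1 (0.20), DKO replicate 2 (0.0503), KO replicate 1 (0.0515), KO replicate 2 (0.0575) and KO replicate 3 (0.0832). Lce3b and Lce3a were listed at 0 in all 3 KO libraries and both KH libraries. In DKO, Lce3b was listed at 5.25 and 4.71 FPKM and Lce3a at 3.21 and 1.99 FPKM. Both passed the test (adjusted p = 0.00019 and 0.00426). By contrast Lce1m, the Lce1 gene with the lowest value, was at 3655 and 901 FPKM in DKO and 1613, 5050.0 and 4749 FPKM in KO, and the groups overlapped.

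The fused S100 proteins are large filament-associated proteins of the upper epidermis. Rptn, encoding repetin, was listed at 321 and 288 FPKM in DKO and 5.0, 13.2 and 13.6 FPKM in KO (log2 difference 4.83, SE 0.37, adjusted p = 0.000285), with KH at 8.31 and 5.92 FPKM and WT at 13.4 and 14.8 FPKM. Crnn, encoding cornulin, was at 34.8 and 20.6 FPKM in DKO and 1.29, 2.31 and 3.53 FPKM in KO (log2 difference 3.10, SE 0.37, adjusted p = 0.00498) and lost its call without DKO replicate 1 (0.0798). Tchhl1, a trichohyalin-like gene, was at 6.59 and 3.19 FPKM in DKO and below 0.1 FPKM in each KO library (log2 difference 2.42, SE 0.26, adjusted p = 0.00233). Hornerin, encoded by Hrnr and a main fused S100 protein of normal epidermis together with filaggrin, had a negative difference that did not pass (372 and 159.9 FPKM in DKO, 316, 699.6 and 814 FPKM in KO, −1.21, adjusted p = 0.719). Filaggrin (Flg) had separate entries at log2 differences of −0.45 and 0.50 and Flg2 was at −0.94, and neither gene passed. The list of 8 entries held 3 called genes (against 0.606% of all tested genes called higher) and had a median of 0.37. Of the 3, Tchhl1 entered the test only through DKO.

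S100a8 and S100a9 encode the subunits of calprotectin, an antimicrobial and chemotactic protein of inflamed epidermis. S100a8 was listed at 15.3 and 15.2 FPKM in DKO and 0.905, 0.459 and 0 FPKM in KO (log2 difference 3.53, SE 0.34, adjusted p = 0.00117). S100a9 was listed at 40.5 and 36.9 FPKM in DKO and 4.48, 8.38 and 5.67 FPKM in KO (log2 difference 2.50, SE 0.35, adjusted p = 0.0117), and lost its call without DKO replicate 1 (0.145), DKO replicate 2 (0.108) and KO replicate 3 (0.0703). The other 10 tested S100 genes did not pass, S100a6 having the next highest value (1.48, adjusted p = 0.164), and the median of the 12 was 0.47. S100a8 averaged below 1 FPKM in KO and entered the test only through DKO. Prr9, a proline-rich gene of the same complex, rose from 0.244, 0.61 and 0.38 FPKM to 8.68 and 5.17 FPKM (log2 difference 2.46, SE 0.24, adjusted p = 0.00159). Myeloid cells also express S100a8 and S100a9 strongly. The markers of T cells and antigen-presenting cells summed to 40.1 and 13.5 FPKM in DKO and to 9.92 to 30.8 FPKM in KO. Of the 6 tested, 3 were above 0 (against 49.0% of all tested genes). This list held no marker particular to neutrophils, so the part of myeloid cells in S100a8 and S100a9 was not tested.

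Secreted defence proteins formed the next group. Of 24 listed antimicrobial and protease inhibitor genes, 15 were tested and 9 stayed below the filter. Of the 15, 3 were higher in DKO (against 0.606% of all tested genes), none was lower, and the median was 0.49. All 3 averaged below 1 FPKM in KO and so entered the test through DKO. Slpi, a secreted inhibitor of leukocyte elastase, was listed at 84 and 66.4 FPKM in DKO and 0.394, 1.12 and 0.894 FPKM in KO (log2 difference 5.41, SE 0.23, adjusted p = 6.75e-06), and no KH or WT library exceeded 0.927 FPKM. Defb3, a beta-defensin, was listed at 0 in all KO, KH and WT libraries and at 2.53 and 3.12 FPKM in DKO (adjusted p = 0.00159). Defb6, another beta-defensin, was at 0.166, 0 and 0.0665 FPKM in KO and 2.51 and 1.66 FPKM in DKO (log2 difference 1.51, SE 0.21, adjusted p = 0.0103) and lost its call without DKO replicate 1 (0.0615). Chi3l1, a chitinase-like lectin, and Defb14, a beta-defensin, were named after their values were seen. Chi3l1 was listed at 201 and 116 FPKM in DKO and 10.1, 22.8 and 26.9 FPKM in KO, and Defb14 at 89.5 and 122 FPKM and 11.1, 21.5 and 12.6 FPKM, and neither passed (adjusted p = 0.0843 and 0.0751).

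Of 16 tested alarmin and interleukin 1 family genes, which encode cytokines and related signals of innate immunity, 4 were higher (against 0.606% of all tested genes), 3 of them averaging below 1 FPKM in KO, none was lower and the median was 0.54. Ccl20, the chemokine that attracts cells bearing Ccr6, was listed at 48.1 and 38.8 FPKM in DKO and 0.119, 0.438 and 0.143 FPKM in KO (log2 difference 5.17, SE 0.22, adjusted p = 6.75e-06), a ratio of averages of 186. Il33, a nuclear alarmin, was listed at 10.2 and 14.2 FPKM in DKO and 0.645, 1.45 and 1.73 FPKM in KO (log2 difference 2.56, SE 0.27, adjusted p = 0.0022). Il1b was at 6.99 and 4.73 FPKM in DKO and 0.584, 0.926 and 0.474 FPKM in KO (log2 difference 2.04, SE 0.24, adjusted p = 0.00426). These 3 calls held without any one library, but that of Il1b was lost with the filter at 5 FPKM (adjusted p = 0.0506). Tslp, a cytokine of barrier-impaired skin, was at 1.42 and 3.02 FPKM in DKO and 0.154, 0.142 and 0.113 FPKM in KO (log2 difference 1.46, SE 0.25, adjusted p = 0.0323) and lost its call without DKO replicate 2 (0.107), KO replicate 1 (0.0759), KO replicate 2 (0.115), KO replicate 3 (0.132), WT replicate 1 (0.0798) and WT replicate 2 (0.0779).

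The other 12 did not pass. The agonist Il1a and the antagonist Il1rn had differences of 0.52 and 0.50 with an adjusted p of 1.00. Further genes of innate immunity outside the lists were Irak3, an inhibitor of interleukin 1 and Toll-like receptor signalling, which rose from 0.283, 0.42 and 0.319 FPKM to 3.89 and 3.48 FPKM (log2 difference 1.81, SE 0.20, adjusted p = 0.00335), and Saa1, an acute-phase protein, which rose from 1.14, 2.36 and 1.69 FPKM to 28.8 and 11.6 FPKM (log2 difference 2.85, SE 0.41, adjusted p = 0.0138). Saa1 lost its call without DKO replicate 1 (0.124) and KO replicate 3 (0.0755).

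Of 40 listed kallikreins, which are serine proteases of desquamation, and Spink inhibitors, 17 were tested. Among the 17, 3 were higher (against 0.606% of all tested genes), of which Spink7 and Spink12 entered the test only through DKO, none was lower and the median was 0.45. Spink7 was at 8.54 and 13.8 FPKM in DKO and 0, 0.749 and 0.117 FPKM in KO (log2 difference 3.25, SE 0.35, adjusted p = 0.00221), and lost its call with a pseudocount of 0.1 (0.0943). Spink12 was at 9.34 and 5.91 FPKM in DKO and 0.0592, 0.287 and 0.153 FPKM in KO (log2 difference 2.86, SE 0.23, adjusted p = 0.000376). Klk6 was at 34.8 and 21.2 FPKM in DKO and 0.836, 3.49 and 1.56 FPKM in KO (log2 difference 3.35, SE 0.54, adjusted p = 0.0237), with WT in between at 7.58 and 3.51 FPKM, and lost its call without DKO replicate 1 (0.293), DKO replicate 2 (0.119), KO replicate 1 (0.0721) and KO replicate 3 (0.132). Spink5, the main kallikrein inhibitor of epidermis, and Klk7, a desquamation protease, did not pass, with log2 differences of −0.10 and 0.17.

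Signalling and transcription factor genes contributed single members. Epgn, an EGF receptor ligand, was listed at 5.42 and 12.4 FPKM in DKO and 1.49, 1.23 and 0.874 FPKM in KO (log2 difference 2.09, SE 0.31, adjusted p = 0.0159). It was the 1 called gene of 10 tested EGF family genes (against 0.606% of all tested genes called higher), whose median was 0.02. Epgn lost its call without DKO replicate 2 (0.0867), KO replicate 2 (0.0756) and KO replicate 3 (0.0879). The other ligands did not pass. Areg and Hbegf were at 0.85 and 0.78 on the log2 scale, and Btc, at 16.4 and 11.1 FPKM in DKO and 28.1, 54.8 and 96 FPKM in KO, was at −1.89 (the 3 were named after their values were seen).

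Fosl1, an AP-1 subunit, was at 2.6 and 2.99 FPKM in DKO and 0.145, 0.313 and 0.41 FPKM in KO (log2 difference 1.56, SE 0.23, adjusted p = 0.014), and lost its call without DKO replicate 1 (0.0762), DKO replicate 2 (0.0945) and KO replicate 2 (0.058). It was the 1 called gene of 15 tested AP-1 and immediate early genes (against 0.606% of all tested genes called higher). The list median was 0.04, with Jun, Junb and Fos at 0.03, 0.12 and −0.12. Pparg, the nuclear receptor of lipid storage, was at 1.86 and 2.26 FPKM in DKO and 0.322, 0.129 and 0.339 FPKM in KO (log2 difference 1.28, SE 0.21, adjusted p = 0.0302). It lost its call without DKO replicate 1 (0.102), DKO replicate 2 (0.16), KO replicate 1 (0.0646), KO replicate 2 (0.115), KO replicate 3 (0.0879), WT replicate 1 (0.0882) and WT replicate 2 (0.0836). Gpx2, a glutathione peroxidase known as a target of Nrf2, was at 1.48 and 1.82 FPKM in DKO and 0.0552, 0.191 and 0.0441 FPKM in KO (log2 difference 1.27, SE 0.20, adjusted p = 0.0183), and lost its call without DKO replicate 1 (0.0528), DKO replicate 2 (0.0833), KO replicate 1 (0.0536), KO replicate 2 (0.0526), KO replicate 3 (0.0832), WT replicate 1 (0.0631) and WT replicate 2 (0.0583). Pparg and Gpx2 were each the only called member of their list (against 0.606% of all tested genes called higher). A further 14 PPAR and lipid storage genes (list median 0.05) and 21 Nrf2 genes (list median 0.01) were not called. Fosl1, Pparg and Gpx2 averaged below 1 FPKM in KO and entered the test only through DKO.

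Beyond the lists, 37 of the 73 higher genes had no list. Slc5a8, a sodium-coupled monocarboxylate transporter, was listed at 12.9 and 9.26 FPKM in DKO and 0.373, 0.514 and 0.475 FPKM in KO (log2 difference 3.04, SE 0.21, adjusted p = 0.000139). Lpo, lactoperoxidase, rose from 0.0716, 0.20 and 0.164 FPKM to 6.96 and 5.36 FPKM (log2 difference 2.64, SE 0.21, adjusted p = 0.00038), and Fetub, a fetuin of the cystatin superfamily, from 0.326, 0.823 and 0.692 FPKM to 13.7 and 6.33 FPKM (log2 difference 2.70, SE 0.31, adjusted p = 0.00353). Cryab, a small heat shock protein, rose from 1.54, 1.39 and 1.1 FPKM to 11.9 and 10.8 FPKM (log2 difference 2.40, SE 0.19, adjusted p = 0.000338). Of these 4 genes, Slc5a8, Lpo and Fetub averaged below 1 FPKM in KO and entered the test only through DKO. All 4 genes kept the call without any one library. They and the other genes outside the lists were chosen for mention after their values were seen. Sema3g, a secreted semaphorin, rose from 0.525, 0.221 and 0.648 FPKM to 5.95 and 4.11 FPKM (log2 difference 2.04, SE 0.23, adjusted p = 0.00359). It also averaged below 1 FPKM in KO, and it lost its call with the filter at 5 FPKM (0.0648).

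Chit1, encoding chitotriosidase, was among the more abundant of these genes, at 280.2 and 142 FPKM in DKO and 14.9, 28.4 and 35.1 FPKM in KO (log2 difference 2.97, SE 0.51, adjusted p = 0.0369), and lost its call without DKO replicate 1 (0.386), DKO replicate 2 (0.0986), KO replicate 1 (0.0844), KO replicate 2 (0.128), KO replicate 3 (0.0855), WT replicate 1 (0.0786) and WT replicate 2 (0.0779). Pla2g4e, a cytosolic phospholipase, was at 17.6 and 23.4 FPKM in DKO, 1.46, 3.71 and 3.78 FPKM in KO and 10.1 and 7.64 FPKM in WT (log2 difference 2.48, SE 0.34, adjusted p = 0.0101), so that the KO libraries lay below WT and DKO above it. It lost its call without DKO replicate 1 (0.0798) and DKO replicate 2 (0.137). Hpgd, which inactivates prostaglandins, rose from 1.68, 4.77 and 4.44 FPKM to 17.7 and 37.8 FPKM (log2 difference 2.62, SE 0.38, adjusted p = 0.0138) and lost its call without DKO replicate 2 (0.141). The small nucleolar RNA genes SNORA42 and Snora7a were listed at 0 in every other library and at 11.7 and 7.25 FPKM and 7.91 and 10.1 FPKM in DKO. FPKM of such short genes is unstable, and polyadenylated libraries are not made to capture them.

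The remaining 20 higher genes ranged from Psors1c2 (log2 difference 2.54) down to the pseudogene Gm11545 (1.11), and each lost its call without at least 1 library. Among them Tpm2, a tropomyosin, was listed at 56.7 and 49.2 FPKM in DKO and 12.1, 18.4 and 11.2 FPKM in KO (log2 difference 1.88, SE 0.24, adjusted p = 0.0067), and Mapre2, a microtubule end-binding protein, at 29 and 31.5 FPKM and 8.71, 7.88 and 11.6 FPKM (log2 difference 1.6, SE 0.20, adjusted p = 0.0065). Tpm2 lost its call without DKO replicate 1 (0.102) and DKO replicate 2 (0.0559), and Mapre2 without DKO replicate 1 (0.0743) and DKO replicate 2 (0.0867). Scnn1g, a subunit of the epithelial sodium channel, was at 8.22 and 6.62 FPKM in DKO and 1.63, 2.0 and 2.21 FPKM in KO (log2 difference 1.51, SE 0.19, adjusted p = 0.0061) and lost its call without DKO replicate 1 (0.0811). The growth factor Fgf1 was at 5.04 and 3.55 FPKM in DKO and 0.214, 0.361 and 0.582 FPKM in KO (log2 difference 1.93, SE 0.25, adjusted p = 0.00708) and lost its call without DKO replicate 1 (0.0798). The others were Serpina9, Slc16a5, Arc, Prnd, Cgref1, Ifi204, Dapk2, Iffo2, Isx, Akr1c18, Adam8, Gm5414, Serinc2 and Sec14l2.

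Fewer genes were lower in DKO. Aldh1a7, an aldehyde dehydrogenase, was listed at 2.11 and 2.65 FPKM in DKO and 27.6, 42.3 and 67 FPKM in KO, with WT at 47.7 and 88.8 FPKM (log2 difference −3.70, SE 0.37, adjusted p = 0.0016), and its KO average was 19.2 times its DKO average. It was the only gene called of 29 tested retinoid and aldehyde dehydrogenase genes (against 0.166% of all tested genes called lower), whose median was −0.08. Slc6a19, a neutral amino acid transporter, was listed at 0.229 and 0.0473 FPKM in DKO and 8.16, 11.8 and 17.7 FPKM in KO (log2 difference −3.52, SE 0.36, adjusted p = 0.00185). 5430425J12Rik, an antisense gene at the same place, moved with it (0 and 0.0164 FPKM in DKO, 1.02, 2.53 and 2.79 FPKM in KO, −1.57, adjusted p = 0.0491) and lost its call without DKO replicate 1 (0.306), DKO replicate 2 (0.276), KO replicate 2 (0.193), KO replicate 3 (0.189), WT replicate 1 (0.107) and WT replicate 2 (0.106). The library kit kept strand, but how the counting used it is not given in the sources used here, so the pair is uncertain.

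Gm9000, annotated as a processed pseudogene, was listed at 78.7 and 86.7 FPKM in DKO, 664, 1113 and 733 FPKM in KO and 660.3 and 589 FPKM in KH (log2 difference −3.29, SE 0.28, adjusted p = 0.000523). Being a near copy of a ribosomal protein gene, it may share reads with its parent and its level is uncertain. Together with Esrp2, these 3 genes (Aldh1a7, Slc6a19 and Gm9000) were the lower genes that kept their call without each library in turn. Sod3, the extracellular superoxide dismutase, was listed at 0.311 and 0.0983 FPKM in DKO and 8.37, 19.7 and 20.2 FPKM in KO (log2 difference −3.74, SE 0.47, adjusted p = 0.00665), and lost its call without DKO replicate 1 (0.0762) and DKO replicate 2 (0.0867).

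**Figure D4:**
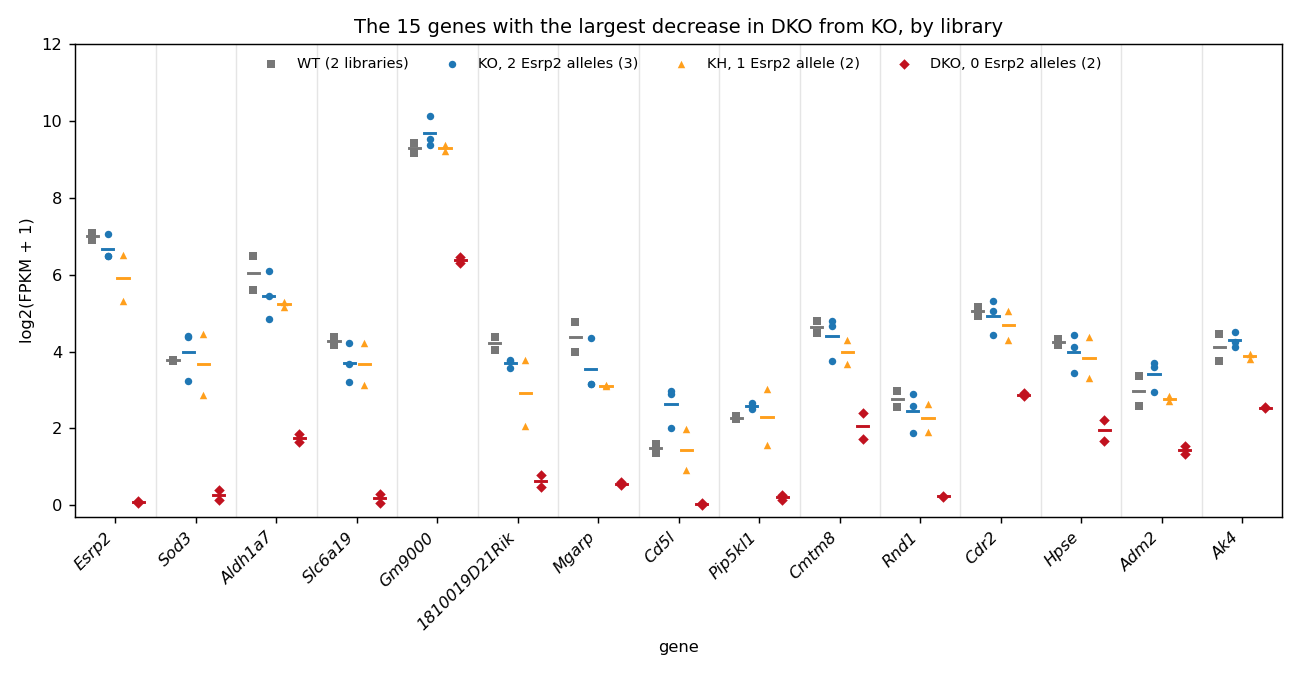
Level as log2(FPKM + 1) (vertical axis) of the 15 called genes with the largest decrease (horizontal axis), with 1 point per library and a bar for each group mean. DKO points lie below those of the other groups for every gene.

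Mgarp, a mitochondrial protein induced by low oxygen, was listed at 0.436 and 0.511 FPKM in DKO and 7.93, 7.95 and 19.4 FPKM in KO (log2 difference −3.00, SE 0.37, adjusted p = 0.00581), and lost its call without DKO replicate 1 (0.0811) and DKO replicate 2 (0.0649). Of 27 tested glycolysis and hypoxia genes, Mgarp was the 1 called (against 0.166% of all tested genes called lower). In this list 23 were below 0 (against 51.0% of all tested genes) and the median was −0.24. Bnip3, a hypoxia-induced mitochondrial protein named after its values were seen, was at 20.8 and 9.92 FPKM in DKO and 52.4, 56 and 107 FPKM in KO and did not pass (−2.16, adjusted p = 0.0663). Glycolytic enzymes of the list, such as Ldha and Tpi1, had differences of −0.54 and −0.57 and did not pass. Ak4, a mitochondrial adenylate kinase, fell from 18.1, 16.3 and 21.9 FPKM to 4.86 and 4.76 FPKM (log2 difference −1.76, SE 0.23, adjusted p = 0.00855), with KH at 14.2 and 13.1 FPKM, and lost its call without DKO replicate 1 (0.102) and DKO replicate 2 (0.0945).

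The other named lower genes all lost their call without at least 1 library. Cd5l, a secreted scavenger receptor protein best known from macrophages, was at 0.0419 and 0 FPKM in DKO and 3.07, 6.81 and 6.51 FPKM in KO (log2 difference −2.60, SE 0.37, adjusted p = 0.0115). Its KH values (0.875 and 2.93 FPKM) and WT values (2.05 and 1.56 FPKM) lay below every KO library and above DKO. Cd5l lost its call without DKO replicate 1 (0.118), DKO replicate 2 (0.116), KO replicate 2 (0.062) and KO replicate 3 (0.0703). Pip5kl1, a phosphoinositide kinase-like gene, was at 0.211 and 0.111 FPKM in DKO and 4.64, 4.96 and 5.32 FPKM in KO (log2 difference −2.36, SE 0.35, adjusted p = 0.0158) and lost its call without DKO replicate 1 (0.138), DKO replicate 2 (0.16), KO replicate 2 (0.0761) and KO replicate 3 (0.0862). Cmtm8, a membrane protein linked to EGF receptor turnover, was at 4.24 and 2.28 FPKM in DKO and 12.5, 26.8 and 24.3 FPKM in KO (log2 difference −2.35, SE 0.36, adjusted p = 0.0159) and lost its call without DKO replicate 1 (0.0743), DKO replicate 2 (0.216), KO replicate 2 (0.0779) and KO replicate 3 (0.0879). Rnd1, a small GTPase, was at 0.193 and 0.165 FPKM in DKO and 2.67, 6.43 and 5.05 FPKM in KO (log2 difference −2.22, SE 0.33, adjusted p = 0.0158) and lost its call without DKO replicate 1 (0.15), DKO replicate 2 (0.152), KO replicate 2 (0.0654) and KO replicate 3 (0.0879). In all 4 genes both DKO libraries lay below every KO library.

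Cdr2 was at 6.14 and 6.53 FPKM in DKO and 20.4, 32 and 39.2 FPKM in KO (log2 difference −2.06, SE 0.31, adjusted p = 0.0158) and lost its call without DKO replicate 1 (0.178), DKO replicate 2 (0.141), KO replicate 2 (0.0799) and KO replicate 3 (0.0689). Hpse, heparanase, was at 3.69 and 2.22 FPKM in DKO and 9.8, 16.3 and 20.4 FPKM in KO (log2 difference −2.03, SE 0.37, adjusted p = 0.04998) and lost its call without DKO replicate 1 (0.183), DKO replicate 2 (0.474), KO replicate 2 (0.203), KO replicate 3 (0.203), WT replicate 1 (0.102) and WT replicate 2 (0.102). Adm2, a peptide hormone of the adrenomedullin family, was at 1.93 and 1.51 FPKM in DKO and 6.69, 12.1 and 11 FPKM in KO (log2 difference −1.97, SE 0.29, adjusted p = 0.0155) and lost its call without DKO replicate 1 (0.124), DKO replicate 2 (0.182), KO replicate 2 (0.0751) and KO replicate 3 (0.0862). The smallest decrease called was that of Emb, the adhesion protein embigin, at 3.27 and 2.68 FPKM in DKO and 8.0, 8.1 and 8.75 FPKM in KO (log2 difference −1.23, SE 0.17, adjusted p = 0.00965), which lost its call without DKO replicate 1 (0.0743) and DKO replicate 2 (0.133). The KO and KH values of Emb were within 7.67 to 8.75 FPKM, so that its DKO values stood clear of a narrow range. Its WT values, at 6.58 and 6.81 FPKM, lay below that range and above DKO. Cryl1, 4930412C18Rik and Gm438, at log2 differences of −1.70, −1.72 and −1.61, completed the lower genes and also lost their call without at least 1 library.

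The lists that fitted the tissue were compared as a whole with all tested genes. Outside the marker lists there were 28 lists, and 38 of the 93 called genes were among their 534 tested genes, against 0.772% of all tested genes. The lists were written with earlier results of these data known. Many of their called members also averaged below 1 FPKM in KO and entered the test only through DKO. This count is therefore given as a description and not as a test of the lists. In 14 lists, with 263 tested genes, no member was called, and at a share of 0.772% few calls would fall among so many genes. The 33 Esrp splicing target genes had a median log2 difference of 0.01, the 28 cell cycle genes 0.04, the 17 basement membrane and hemidesmosome genes 0.04 and the 25 epidermal transcription factors 0.06. Of the other 10 lists, the Skint genes had a median of −0.42 and the desmosomal genes −0.24, and 8 had medians from −0.11 (tight and gap junction genes) to 0.16 (clade B serpins), barrier lipid, cholesterol and fatty acid synthesis and envelope precursor genes among them. The median of all genes was −0.006. FPKM sums the isoforms of a gene, so a switch between isoforms would not show in these values.

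**Figure D5:**
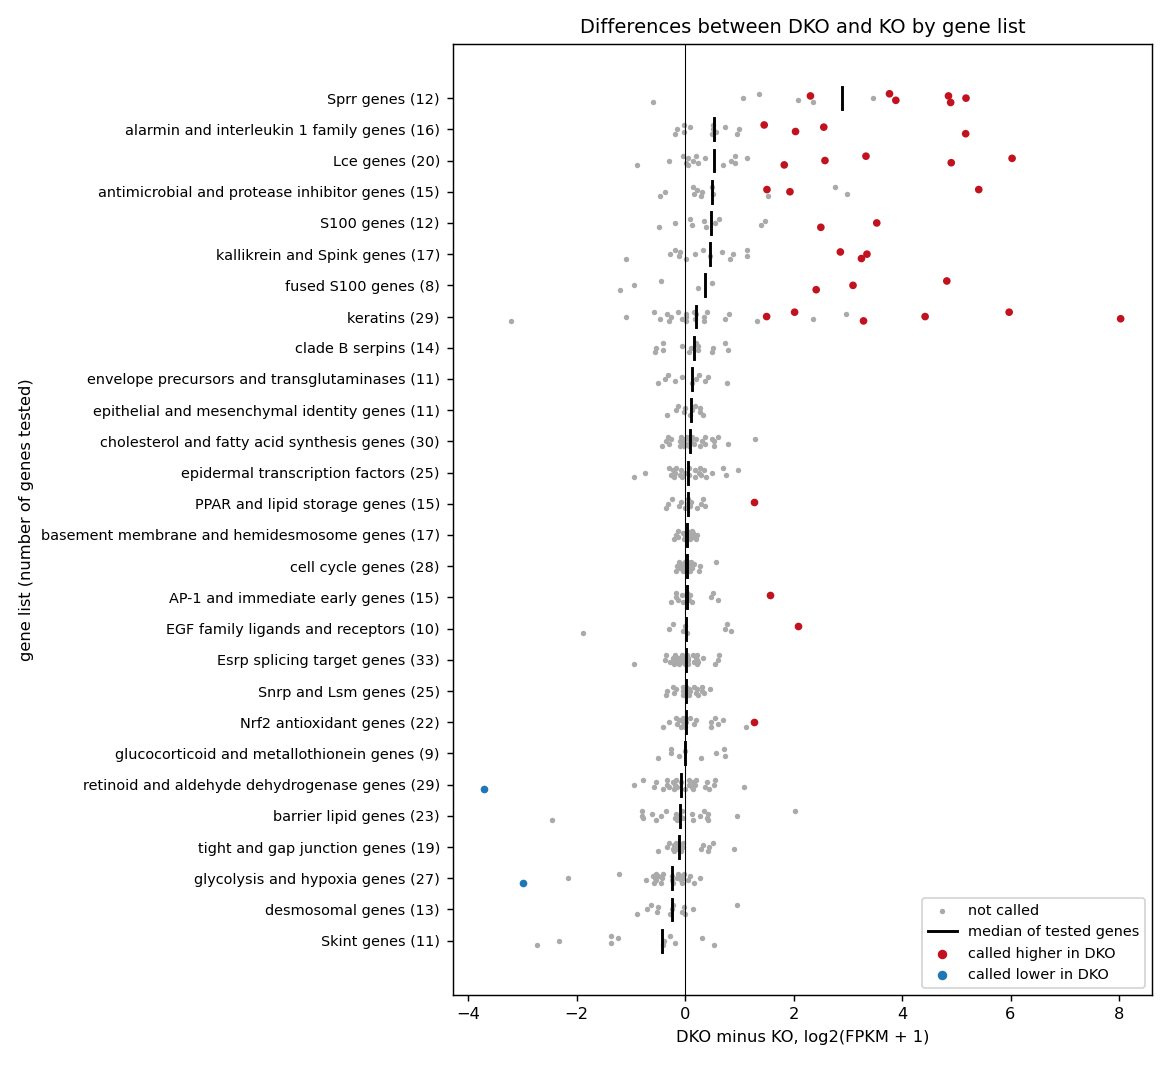
Log2 difference between DKO and KO (horizontal axis, log2(FPKM + 1) scale) of each tested gene in the 28 gene lists (vertical axis), with 1 point per gene, a bar for the median of each list and called genes in colour. The Sprr list has the highest median (2.90), and the Skint list, with no gene called, has a median of −0.42.

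Members of those lists with the highest levels illustrate this. Loricrin (Lor), the most abundant envelope precursor of its list, was listed at 5665 and 2645 FPKM in DKO and 2960.0, 7007 and 5411 FPKM in KO (−0.32, adjusted p = 1.00), and Cnfn, cornifelin, at 1906 and 1194 FPKM and 795, 1938 and 1042 FPKM (0.37, adjusted p = 1.00). Pcna, the replication clamp, was at 75.3 and 97.5 FPKM in DKO and 95.1, 76.7 and 68.8 FPKM in KO, and E-cadherin (Cdh1) at 125 and 126 FPKM and 105, 103 and 151 FPKM. The DKO and KO values overlapped in all 4 genes. Klf4, a factor of barrier formation, was at 169 and 179 FPKM in DKO and 144, 166 and 271 FPKM in KO. Fdps, an enzyme of cholesterol synthesis, had both DKO libraries (276 and 206 FPKM) above all KO libraries (137, 165 and 117 FPKM) and did not pass (0.78, adjusted p = 0.377).

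The Skint and desmosomal lists had most members below 0 without a called gene. Skint genes encode epidermal proteins involved in selecting skin gamma-delta T cells. Of 11 tested, 9 were below 0 (against 51.0% of all tested genes) and the median was −0.42. Skint2 was at 6.18 and 1.57 FPKM in DKO and 16.3, 26.8 and 46.9 FPKM in KO (−2.73, adjusted p = 0.0663), and Skint4 at 4.16 and 2.23 FPKM and 6.16, 8.59 and 15.9 FPKM (−1.36, adjusted p = 0.292). Of 13 tested desmosomal genes, 11 were below 0 (against 51.0% of all tested genes) and the median was −0.24. Perp was at 2315 and 1667 FPKM in DKO and 1582, 2586 and 3372 FPKM in KO (−0.29, adjusted p = 1.00). Among barrier lipid genes, Smpd1, the acid sphingomyelinase, came nearest to the threshold, at 27.6 and 15 FPKM in DKO and 67.5, 138 and 170.5 FPKM in KO (−2.46, adjusted p = 0.0572), and was named with Skint2 after its values were seen. Grhl1, a transcription factor of desmosome genes, was at 43 and 41.6 FPKM in DKO and 52.8, 92.1 and 114 FPKM in KO, below all KO libraries but not past the test (−0.94, adjusted p = 0.561).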

How the data were processed

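Total epidermis of E18.5 embryos was sequenced from strand-marking polyadenylated libraries. The authors mapped reads to mm10 with TopHat 1.4.1 and computed FPKM values per gene with Cuffdiff 2.2.0, and these FPKM values were used as deposited. The deposited averages per genotype were not used. Gene types, overlaps and newer names came from GENCODE M21, and promoters from RefSeq (GRCm38.p6).

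Genes averaging at least 1 FPKM in DKO or KO, with X and Y genes left out, were tested with limma 3.58.1 (R 4.3.3) on log2(FPKM + 1), fitting 4 genotype means to all 9 libraries, with an intensity trend and Benjamini-Hochberg adjustment. A call needed an adjusted p below 0.05 and more than 2-fold in average FPKM, as in the study's methods. Standard errors (SE) are from that fit. The procedure was tested on simulated data first. Alternatives to the filter, pseudocount, scaling, model and library set were run.

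Named genes were Esrp1, Esrp2 and their neighbours, the 15 largest called increases and the 15 largest decreases, called list members, the 2 most abundant members of lists without a call, and genes the study names. Other genes were chosen for mention after their values were seen. The comparison, the gene lists and the rule were chosen with earlier results of these data known. Replicates were separate embryos.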

Additional observations from a re-analysis of the deposited data

Results flagged for a closer look

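Gyk, the X-linked glycerol kinase gene, lay outside the main comparison because it is on chromosome X. With X and Y genes kept, it was higher in DKO (9.91 and 12 FPKM) than in KO (2.67, 2.94 and 4.14 FPKM), with a log2 difference of 1.502 (limma, adjusted p = 0.00919). The KH libraries, which like DKO carried Y transcripts, were at 3.8 and 3.82 FPKM, and the WT libraries, of which only replicate 1 did, were at 3.51 and 4.06 FPKM. No KH or WT library reached the DKO values.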

How the results depend on the processing

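Without each library in turn, the number of called genes ranged from 51 to 127, the higher genes from 47 to 90 and the lower genes from 4 to 37, the lowest counts being without DKO replicate 1 (lower genes also without DKO replicate 2) and the highest without KH replicate 1 (lower genes also without KH replicate 2). The lower genes numbered 32, 8 and 9 without KO replicates 1, 2 and 3. A filter at 5 FPKM called 59 genes (45 higher), with fewer genes tested. No filter called 12 lower genes, library weights 31 and TPM 50, TPM giving 139 calls of which 64.0% were higher, against 78.5% with FPKM. A pseudocount of 0.1 called 87 genes (69.0% higher), and the remaining alternatives (filter above 0.1 FPKM, DKO and KO libraries alone, no intensity trend, median ratio or quantile scaling, transcript length correction, X and Y genes kept) called 91 to 111. Using an unadjusted p gave 463 genes (241 higher, 222 lower). The log2 summed FPKM as a covariate, an alternative chosen after seeing the data, gave 189 genes (115 higher, 74 lower) and kept all 93, and the cause was not tested. With the replicate number as a block, 47 genes were called (39 higher, 8 lower), 44 of them among the 93, and Il1b (adjusted p = 0.0635), Lce3a (0.0622) and Irak3 (0.0604), which held without each library, were not called. The numbers were not taken to pair embryos, because no label ties them to a litter or day and the deposited columns number the embryos differently from the titles. Deviations of DKO and KO replicates 1 correlated at −0.59, but those of 2 DKO libraries mirror each other, so this does not test the pairing. Across the settings, 33 of the 93 genes kept their call everywhere (29 higher, 4 lower). Esrp2 kept its call, between −6.67 and −6.39 without single libraries, and Esrp1 stayed uncalled, between 0.43 and 0.55. No called gene changed direction under any setting. The fit has 5 residual degrees of freedom and 2 DKO libraries, the depth of each library cannot be read from FPKM, and sex differs with genotype.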
